A study of Homo sapiens with 2 samples.

Results

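Mitochondrial ribosomal protein genes were taken as all gene symbols that start with MRPL or MRPS followed by a number, with hyphenated and pseudogene symbols left out. The rule found 76 genes among 23686 symbols, 47 named for the large subunit and 29 for the small subunit. They were measured in A427, a line of human non-small cell lung carcinoma that grows both as floating spheres and attached to the dish. RNA of floating, sphere-forming cells and of adherent cells was sequenced with an mRNA library kit, each in 1 library, from cells kept in RPMI 1640 medium with 5% serum. The sample labels give the genotype of both as wild type, while the series title calls the line CTNNB1-mutated. The growth forms were collected separately from 1 line, with no replicate of either.

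The mitochondrial ribosome, or mitoribosome, translates the few messenger RNAs encoded in mitochondrial DNA, whose products are core subunits of the respiratory chain and of ATP synthase. Its RNA comes from the mitochondrial genome, but its proteins are all encoded in the nucleus, made on cytosolic ribosomes and imported. Part of these proteins have counterparts in bacterial ribosomes, and the others were added during the evolution of mitochondria. Symbols follow an older naming, so a few proteins sit elsewhere than the symbol says. MRPS30 and MRPS18A belong to the large subunit, and MRPS36 is a subunit of the 2-oxoglutarate dehydrogenase complex and not of the ribosome.

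The floating library held 27148842 gene-assigned reads and the adherent library 26384670. Of all symbols, 13131 reached 1 CPM (counts per 1000000 after scaling) in at least one library and were compared, and all 76 mitoribosomal genes were among them. With 1 library per growth form no test was made, no p-value is given, and the spread between cultures is unknown. Each ratio is floating over adherent, given as a fold or as its log2, with an exact 95% interval that covers counting error only. An interval above 0 lies wholly above 0 on the log2 scale. Of the epithelial markers, KRT8, KRT18 and EPCAM had 327 TPM or more in both libraries, whereas KRT19 had 22 reads in floating and 8 in adherent cells and CDH1 had 13.9 and 18.9 TPM, while the lung lineage genes NKX2-1, SFTPB, SFTPC and NAPSA had at most 29 reads. KRT8 was 1.83-fold and KRT18 1.84-fold higher in floating cells, and CDH1 1.31-fold lower. Among genes of other cell types, the macrophage marker CD68 was 1.91-fold and the endothelial VWF 2.97-fold higher (44 and 14 reads), while the leukocyte marker PTPRC was 1.36-fold and the fibroblast gene COL1A1 1.69-fold lower. PECAM1, DCN and PDGFRB had at most 10 reads, and CD3E was at 0 in both libraries. The part of these differences in the mitoribosomal values was not tested. In bulk RNA, a change in the share of cells of one kind and a change in RNA per cell cannot be told apart.

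Promoter sequences are shown for members at the ends of the results and at the top of the levels, to set their motifs beside their values. RefSeq promoter windows (build GRCh38.p14, from 250 bases before to 50 after each transcript start) were found for 67 of the 76 genes. Of these windows 280 bases are printed, up to 30 after the start, 5′ to 3′ on the gene's strand, for a gene at the upper end of each subunit (MRPS10, chr6:42217832-42218111, minus strand, and MRPL1, chr4:77862580-77862859, plus strand), for the lower end of each (MRPL49, chr11:65121933-65122212, plus strand, the first of 2 listed starts, and MRPS27, chr5:72320211-72320490, minus strand), and for the most abundant gene of each subunit (MRPL51, chr12:6493233-6493512, minus strand, and MRPS21, chr1:150293611-150293890, plus strand). Capitals mark the motifs described after them.
MRPS10: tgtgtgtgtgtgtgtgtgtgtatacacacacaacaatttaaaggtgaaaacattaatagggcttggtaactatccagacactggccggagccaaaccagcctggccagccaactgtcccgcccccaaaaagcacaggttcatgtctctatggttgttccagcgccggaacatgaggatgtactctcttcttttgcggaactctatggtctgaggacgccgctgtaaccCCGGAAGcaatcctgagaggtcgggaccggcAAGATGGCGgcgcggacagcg
MRPL1: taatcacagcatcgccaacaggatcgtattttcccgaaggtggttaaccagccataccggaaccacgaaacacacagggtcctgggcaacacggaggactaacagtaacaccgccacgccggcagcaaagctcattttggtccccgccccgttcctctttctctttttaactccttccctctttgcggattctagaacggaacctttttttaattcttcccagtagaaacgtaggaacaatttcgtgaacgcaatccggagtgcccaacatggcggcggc
MRPL49: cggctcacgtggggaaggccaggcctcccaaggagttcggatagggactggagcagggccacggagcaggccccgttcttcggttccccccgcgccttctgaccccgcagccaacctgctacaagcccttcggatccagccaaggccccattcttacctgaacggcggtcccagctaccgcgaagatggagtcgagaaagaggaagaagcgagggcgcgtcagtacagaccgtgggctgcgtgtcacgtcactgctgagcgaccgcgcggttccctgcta
MRPS27: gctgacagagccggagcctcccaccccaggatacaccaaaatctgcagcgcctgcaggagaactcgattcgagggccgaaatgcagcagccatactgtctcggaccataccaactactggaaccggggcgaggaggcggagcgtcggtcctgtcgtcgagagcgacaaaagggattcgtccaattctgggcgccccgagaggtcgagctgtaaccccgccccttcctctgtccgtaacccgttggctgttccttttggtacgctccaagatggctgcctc
MRPL51: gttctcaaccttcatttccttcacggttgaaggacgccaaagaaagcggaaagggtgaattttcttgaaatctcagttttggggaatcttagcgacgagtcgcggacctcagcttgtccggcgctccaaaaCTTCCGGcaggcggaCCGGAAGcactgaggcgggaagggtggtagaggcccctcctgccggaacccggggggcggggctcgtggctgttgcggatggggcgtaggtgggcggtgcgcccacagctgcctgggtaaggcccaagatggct
MRPS21: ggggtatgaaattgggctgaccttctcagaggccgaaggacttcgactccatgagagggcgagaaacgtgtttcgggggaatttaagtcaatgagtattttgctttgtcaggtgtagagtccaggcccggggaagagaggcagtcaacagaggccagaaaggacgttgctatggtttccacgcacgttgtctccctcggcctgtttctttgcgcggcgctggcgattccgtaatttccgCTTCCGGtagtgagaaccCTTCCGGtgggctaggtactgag

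Searches covered both strands of each window for 4 motifs, which may overlap one another: CCGGAAG, bound by ETS factors such as GABPA, AAGATGGCG, bound by YY1, GCATGCGC, the core of the site of NRF1, and TATAAA, the TATA box. ETS factors, YY1 and NRF1 are known regulators of nuclear genes for mitochondria. The ETS motif stood in 38.6% of 83 windows of mitoribosomal genes, against 10.3% of all 35116 windows and 16.6% of the windows of tested genes. For the YY1 motif the shares were 15.7%, against 1.75% of all windows and 3.35% of those of tested genes. The NRF1 core was in 7.23% of member windows, against 3.05% of all windows and 4.71% of those of tested genes. The TATA box was in 3.61%, against 11.5% and 6.03%. MRPS10 held both an ETS and a YY1 motif, as did MRPL38, MRPL52 and MRPS18A, and MRPL51 and MRPS21 each held the ETS motif at 2 places. None of the 4 exact strings was found in the printed sequences of MRPL49 and MRPS27, at the lower ends, nor in that of MRPL1, at the upper end. In the full windows, 27 of the 67 genes held none of the 4. Sequences that differ from a string by a single base were not searched for. The 29 genes with an ETS motif had a median log2 ratio of 0.23, against 0.26 in the 38 without it. Those with a YY1 motif, 13 genes, had a median of 0.33, and the 54 without it 0.23. A match is a string of letters and not a measured binding site, and these medians are descriptions with no test.

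Levels differed far more between the genes than between the growth forms. The 76 genes spanned 19.8 to 731 TPM (transcripts per 1000000, a level per length) in floating cells, with a median of 81.2, and 16.2 to 623 TPM in adherent cells, with a median of 73.2. Their order was nearly the same, with a Spearman rho of 0.98 across the 76 genes between the libraries. Between 50 and 200 TPM lay 50 genes in each library. Of the summed TPM of all members, the large subunit held 66.3% in floating and 66.2% in adherent cells. The highest level was 36.9-fold the lowest in floating and 38.4-fold in adherent cells.

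MRPL51, a protein of the large subunit without a bacterial counterpart, was the most abundant, at 731 TPM in floating and 623 TPM in adherent cells (4571 and 3673 reads). MRPL33, the counterpart of bacterial L33, had 362 and 328 TPM. MRPL3, a core protein that reaches toward the catalytic centre, had 319 and 279 TPM, and with 6654 and 5462 reads it was the most deeply counted member. MRPL24 (239 and 196 TPM), MRPL36 (202 and 163 TPM) and MRPL12 (199 and 161 TPM), the stalk protein that recruits translation factors, completed the upper 6 of the large subunit. All 6 were higher in floating cells, with counting intervals above 0 and log2 ratios between 0.20 (MRPL33) and 0.35 (MRPL12). In the small subunit, MRPS21 stood first with 433 TPM in floating and 377 TPM in adherent cells. MRPS15 followed with 211 and 170 TPM, MRPS24 with 201 and 172 TPM and MRPS17 with 146 and 109 TPM. MRPS22, a mitochondria-specific protein in which inherited variants cause respiratory chain deficiency, had 125 and 104 TPM, and MRPS7 117 and 104 TPM. These 6 were also higher in floating cells. An interval above 0 was found for 25.5% of all tested genes, and gene length is set against these ratios further below.

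At the low end of the levels, MRPS11 had 19.8 TPM in floating and 16.2 TPM in adherent cells, MRPS25 had 23.7 and 21.2 TPM and MRPS14 25.8 and 24.2 TPM. In the large subunit the lowest were MRPL22, which lines the exit tunnel for the nascent chain, with 26.6 and 24.0 TPM, and MRPL46 with 34.2 and 25.7 TPM. MRPL55 had 31.1 and 27.3 TPM. It was the member with fewest reads (203 and 160), and its interval held 0. No member was at 0 reads in either library.

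**Figure D1:**
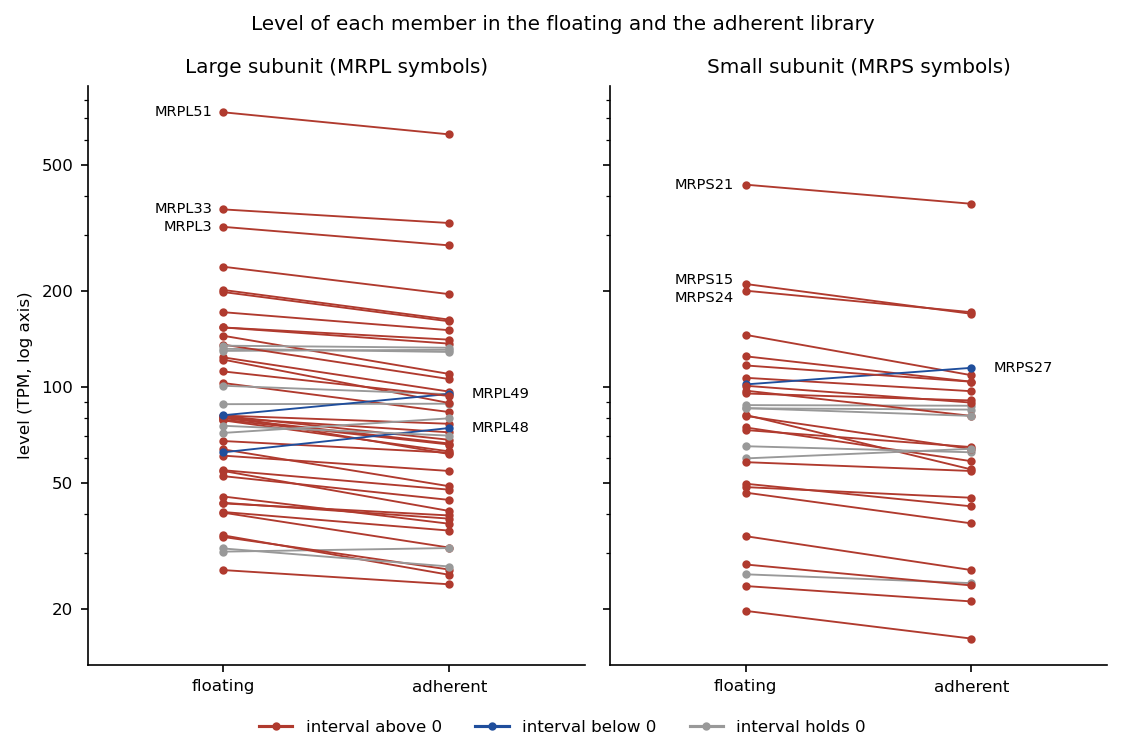
Level of each of the 76 genes in TPM (log axis) in the floating library and the adherent library, in a panel per subunit, with a line joining the 2 values of a gene and colour for whether its counting interval lay above 0, below 0 or held 0. Most lines slope down toward adherent cells, and those with an interval below 0 (MRPL48, MRPL49 and MRPS27) slope up.

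Transcripts of the mitoribosome were slightly more abundant in floating cells. Of the 76 genes, 71 had a log2 ratio above 0 and 58 a counting interval above 0, while 3 had one below 0 and 15 held 0. Over all 13131 tested genes, 6451 had a log2 ratio above 0. An interval above 0 was found for 25.5% of them and one below 0 for 25.6%. The median log2 ratio of the members was 0.24 (1.18-fold), with quartiles of 0.14 and 0.35, against -0.005 for all tested genes. Summed over all members, 107097 reads in floating and 89593 reads in adherent cells gave a ratio of 1.16 (interval 1.15 to 1.17), and their share of all reads was 0.394% in floating and 0.340% in adherent cells.

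The single differences were small. At least 1.2-fold higher, with an interval above 0, were 34 members, 44.7% of them, against a background of 12.1% of all tested genes. A ratio at least 1.2-fold lower with an interval below 0 was reached by no member, where the background was 12.5%. No member was 2-fold apart in either direction, against 2.03% of all genes. The range over members ran from -0.21 for MRPL48 to 0.61 for MRPS10.

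**Figure D2:**
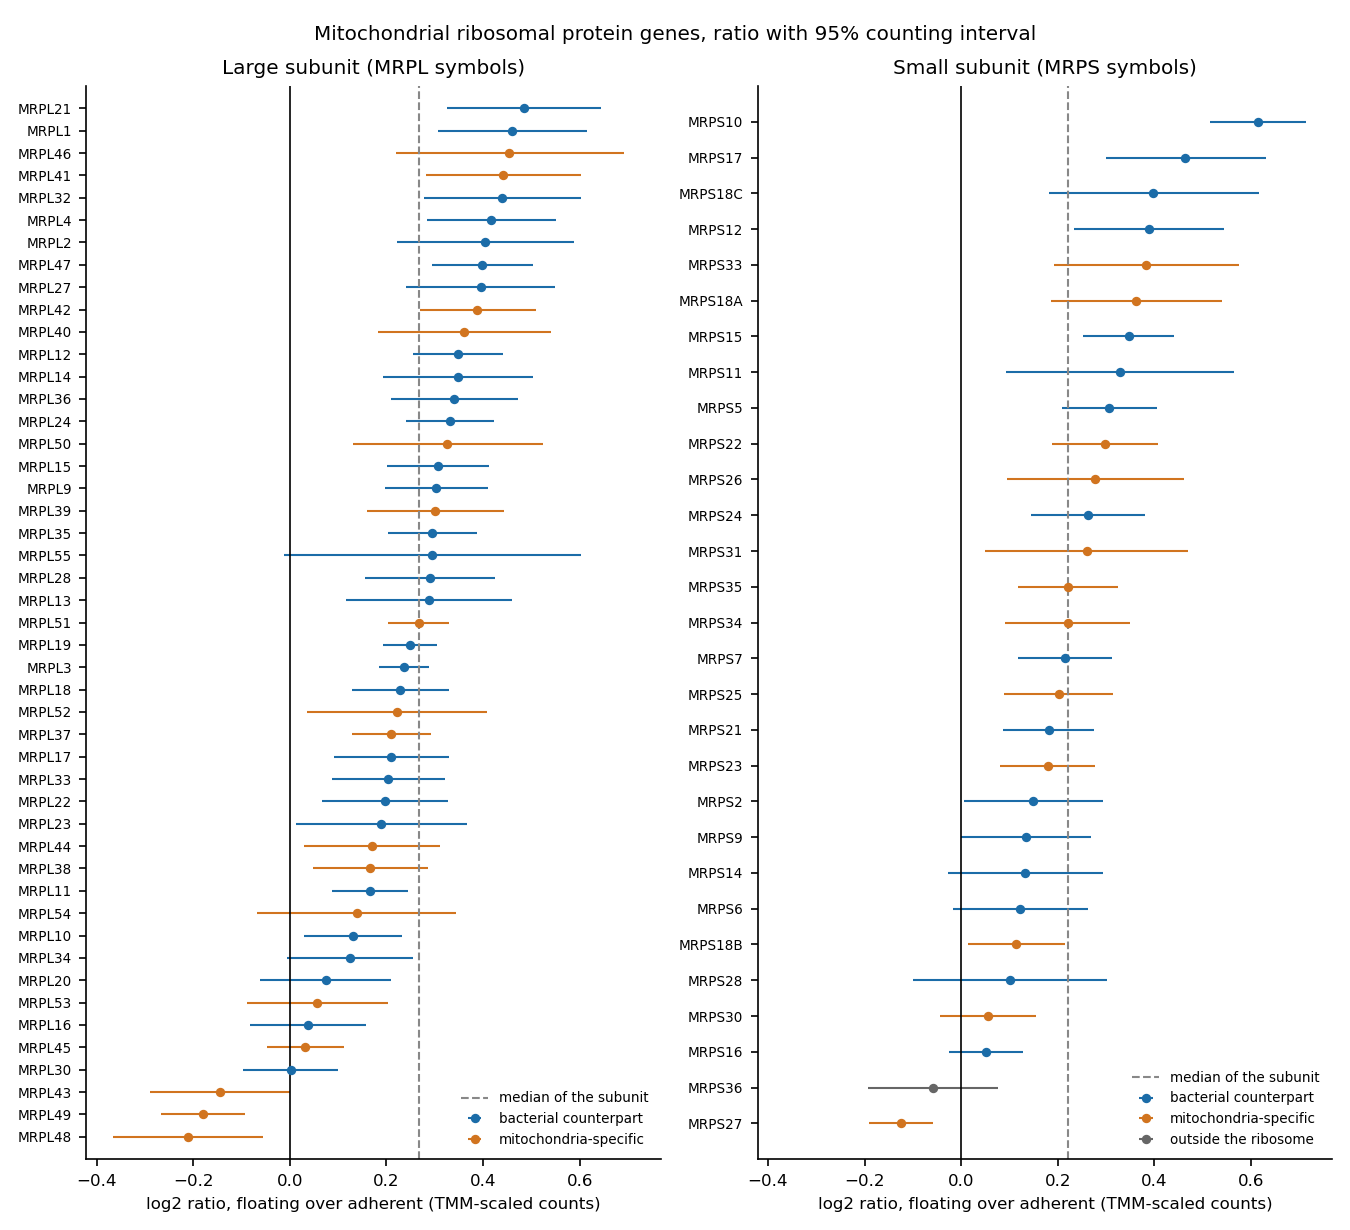
Log2 ratio of floating over adherent for each gene (points, TMM-scaled counts) with its exact 95% counting interval (bars), ordered by ratio in a panel per subunit, with colour for whether the protein has a bacterial counterpart. The dashed line is the subunit's median, 0.27 in the large and 0.22 in the small subunit, and no point reaches a log2 ratio of 1.

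In the large subunit, 36 of 47 genes had an interval above 0 and 2 had one below. Among all tested genes, these shares were 25.5% and 25.6%. The 6 with the highest lower interval bounds follow, and 5 of them have a bacterial counterpart, as do 30 of the 47. MRPL46, without a counterpart, had a log2 ratio of 0.45, above those of MRPL41, MRPL32, MRPL4 and MRPL47, on fewer reads. MRPL21 had 792 reads in floating and 547 in adherent cells, 122 and 89.1 TPM, a ratio of 1.40 (interval 1.25 to 1.56). MRPL1, part of the mobile stalk beside the exit site for spent tRNA, had 840 and 590 reads, a ratio of 1.38 (1.24 to 1.53). MRPL32, whose maturation by a mitochondrial protease is needed for ribosome assembly in yeast and mouse, was 1.36-fold (1.21 to 1.52), and MRPL4, at the exit tunnel, 1.34-fold higher (1.22 to 1.47). MRPL47, the counterpart of bacterial L29, was 1.32-fold higher (1.23 to 1.42). MRPL41, without a bacterial counterpart, had 145 TPM in floating and 110 TPM in adherent cells and was 1.36-fold higher (1.22 to 1.52). Each of these 6 had its interval bound nearest to 0 above 1.2-fold.

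Of the 4 at the lower end of the large subunit, 3 are mitochondria-specific, as are 19 of its 49 genes by structure. MRPL49 had 2067 reads in floating and 2262 in adherent cells (81.6 and 95.2 TPM) and had a log2 ratio of -0.18 (interval -0.27 to -0.09), 1.13-fold lower in floating cells. MRPL48 had 645 and 722 reads (62.4 and 74.4 TPM) and was 1.16-fold lower (1.04 to 1.29). MRPL43 had 762 and 814 reads, a log2 ratio of -0.14, with an interval that touched 0. MRPL30, a core protein, showed almost equal reads after scaling (62.5 and 62.4 CPM).

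In the small subunit, 22 of 29 genes had an interval above 0 and 1 had one below, beside 25.5% and 25.6% of all genes. MRPS10 had the highest ratio of all members, with 2122 reads in floating and 1340 in adherent cells, 81.8 and 55.1 TPM, a ratio of 1.53 (interval 1.43 to 1.64). Its interval overlapped those of several others, among them MRPL46, MRPL21, MRPS17 and MRPL1. MRPS10 belongs to the head of the small subunit and has a counterpart in bacteria. MRPS17 followed at 1.38-fold (1.23 to 1.55). MRPS12, a protein of the decoding centre, had 798 and 589 reads and was 1.31-fold higher (1.18 to 1.46). MRPS33 (log2 ratio 0.38), MRPS15 (0.35) and MRPS5 (0.31) completed the 6 with the highest lower interval bounds. By ratio alone, MRPS18C (0.40) and MRPS18A (0.36) stood above MRPS15, and MRPS11 (0.33) above MRPS5. At the other end, MRPS27, a pentatricopeptide-repeat protein, had 3524 reads in floating and 3713 in adherent cells (102 and 115 TPM) and was 1.09-fold lower (1.04 to 1.14). MRPS16 was at 1.04 (0.983 to 1.09), its interval holding no difference.

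Of the genes whose product sits elsewhere than the symbol says, MRPS36 and MRPS30 had intervals that held 0 and MRPS18A had not. MRPS36, of the 2-oxoglutarate dehydrogenase complex, had 897 reads in floating and 903 in adherent cells, a ratio of 0.960 (0.874 to 1.05). MRPS30, of the large subunit, had 1684 and 1566 reads, a ratio of 1.04 (0.970 to 1.11). The MRPS18 paralogues, related to bacterial S18, occupy different sites, and those outside the bacterial place were counted as mitochondria-specific. MRPS18C takes the bacterial place, MRPS18B another site of the small subunit and MRPS18A one in the large. MRPS18C was 1.32-fold (1.13 to 1.53) and MRPS18A 1.29-fold (1.14 to 1.45) higher in floating cells. MRPS18B, the most abundant with 95.5 TPM in floating and 90.8 TPM in adherent cells, was 1.08-fold higher (1.01 to 1.16), and its interval overlapped those of both others.

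The difference between the large and the small subunit was not tested. Their median log2 ratios were 0.27 and 0.22, a difference of 0.05. Summed reads were 1.16-fold higher for the large subunit (interval 1.15 to 1.18) and 1.14-fold higher for the small subunit (1.12 to 1.16). The large subunit took 64.8% of member reads in floating cells (exact interval 64.5 to 65.1) and 64.3% in adherent cells (63.9 to 64.6). With MRPS30 and MRPS18A moved to the large subunit and MRPS36 left out, the medians stayed at 0.27 and 0.22. On the deposited TPM the medians were 0.19 and 0.18.

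Proteins were also grouped by whether they have a bacterial counterpart, with subunits by structure. All 30 large-subunit genes with a counterpart had a log2 ratio above 0, 25 of them with an interval above 0, with a median of 0.29. Among these 30, MRPL30 stood at 0.002 and was below 0 with upper-quartile scaling, on TPM and with the GC trend removed, and with the length trend removed 28 were above 0. Of the 19 without a counterpart, 12 had an interval above 0 and 2 one below, and their median was 0.21. Of all 13131 tested genes, 6451 had a log2 ratio above 0, 25.5% an interval above 0 and 25.6% one below. In the small subunit the medians were 0.24 over 16 genes with a counterpart and 0.22 over 10 without. With the length trend described next removed, this order turned, to 0.13 with a counterpart and 0.17 without. All 3 members with an interval below 0 (MRPL48, MRPL49 and MRPS27) were mitochondria-specific. These are counts over genes of 2 libraries and were not tested.

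Gene length was set against the ratios, because short genes as a class were higher in floating cells. Effective length was taken as reads per TPM, relative to the median tested gene, which stands at 1. The mitoribosomal genes were short, with a median of 0.351 and a range from 0.0956 (MRPL33) to 2.76 (MRPL19). Tested genes were put in 4 length classes of equal size. In the shortest class, up to 0.621, the median log2 ratio was 0.07 over 3283 genes, and 34.4% had an interval above 0. In the longer classes it was 0.01, -0.03 and -0.05. That shortest class held 64 of the 76 mitoribosomal genes, with a median of 0.26, and 51 of the 64 (79.7%) had an interval above 0. In the second class 3 of 7 members had one (median 0.13), against 24.6% of all genes there. Of the 5 longest, MRPL42, MRPL22, MRPL19 and MRPS25 had intervals above 0, with log2 ratios of 0.39, 0.20, 0.25 and 0.20. The interval of MRPL30 held 0. In the class of MRPL42, MRPL22 and MRPL30, 22.3% of all genes had an interval above 0. In the longest class, that of MRPL19 and MRPS25, the share of all genes was 20.5%.

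With the trend over length in all tested genes removed, the members' median log2 ratio was 0.18, compared with 0.24 before, and 65 of 76 ratios lay above 0. Then 44 members had an interval above 0 and 5 one below, where the background of all genes was 24.1% and 25.3%. The count at least 1.2-fold higher was 17, against 34 without the correction, where the background of all genes was 10.8%. MRPS10 stayed at 0.59. Among the most abundant genes, which are short, MRPL33 came to 0.01, MRPS21 to 0.01 and MRPL51 to 0.11, each below its counting interval. MRPL48 came to -0.33, and MRPL43 and MRPS36 joined MRPL48, MRPL49 and MRPS27 below 0. The medians of the subunits were then 0.19 (large) and 0.14 (small). Across the 76 genes the ratio and log2 effective length had a Pearson r of -0.22 and a Spearman rho of -0.26, and across all tested genes -0.12 and -0.18. With the log2 length of the longest annotated transcript the 76 genes gave 0.01 and -0.02. With the log2 span of the gene on the genome they gave -0.18 and -0.15. The points share their libraries, and length enters both TPM and reads, so these are descriptions. Whether length itself, fragment size or another property that goes with it moved the ratios was not tested.

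**Figure D3:**
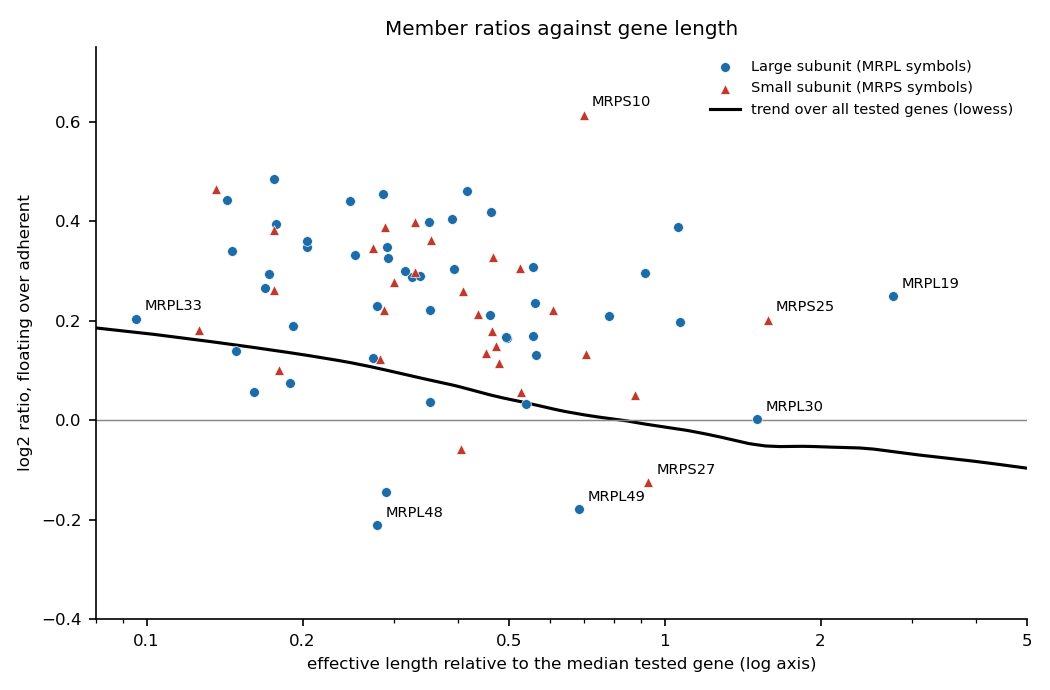
Log2 ratio of floating over adherent against effective length relative to the median tested gene (log axis), for large-subunit genes (circles) and small-subunit genes (triangles), with the lowess trend over all 13131 tested genes (line). Most members lie above the line, which itself rises toward short genes, and MRPS10 is the point farthest above it.

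Lists of genes that work with the mitoribosome were set beside its proteins. The 7 mitoribosomal proteins with other symbols had a median log2 ratio of 0.31, and 6 had an interval above 0 and none below. ICT1, a peptidyl-tRNA hydrolase built into the large subunit, had 75.6 TPM in floating and 49.1 TPM in adherent cells, a ratio of 1.58 (interval 1.40 to 1.79), and AURKAIP1 of the small subunit was 1.26-fold higher. Assembly factors, by contrast, had a median of 0.04. Of their 27 intervals, 7 lay above 0 (25.9%), close to the 25.5% of all genes. Only 1 lay below 0, where the share of all genes was 25.6%, and 19 held 0. Largest in size among those of at least 10 CPM were ERAL1, the chaperone of the small-subunit RNA (1.28-fold), and MRM1, a methyltransferase of the large-subunit RNA (1.26-fold).

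Translation factors had a median of 0.15, with 9 of 16 intervals above 0 (56.2%) and 2 below. The shares of all tested genes were 25.5% above 0 and 25.6% below. SLIRP, which with LRPPRC stabilises mitochondrial messengers, had 357 TPM in floating and 260 TPM in adherent cells (1.40-fold, interval 1.27 to 1.55). LRPPRC itself was slightly lower in floating cells, with a log2 ratio of -0.08 (interval -0.11 to -0.05). MTRF1L, the main release factor, was also lower, with 46.1 and 68.6 TPM, a 1.44-fold difference (1.37 to 1.53). Mitochondrial tRNA synthetases had a median of 0.11 and 8 of 17 intervals above 0 (47.1%), with MARS2 at 1.39-fold and SARS2 at 1.21-fold. Genes of mitochondrial transcription and its nuclear regulators had a median of 0.12 and 6 of 14 intervals above 0 (42.9%). The coactivator PPARGC1B had a log2 ratio of 0.44 and the growth regulator MYC one of 0.38. Of the factors named for the motifs, GABPA (-0.08), NRF1 (-0.01) and YY1 (0.06) had intervals that held 0.

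Respiratory chain and ATP synthase subunits had a median of 0.18, with 54 of 75 intervals above 0 and 3 below, led by NDUFB3 of complex I (1.46-fold) and UQCRB of complex III (1.37-fold). Cytosolic ribosomal proteins had a median of 0.06, with 48 of 82 above 0 and 15 below. Among all tested genes, 25.5% of intervals lay above 0 and 25.6% below. RPS27L, a paralogue of RPS27, was 1.38-fold higher. At least 1.2-fold higher were 14 of the 75 respiratory chain genes (18.7%) and 7 of the 82 cytosolic ribosomal genes (8.54%), beside 44.7% of mitoribosomal and 12.1% of all tested genes. Genes of both lists are shorter than mitoribosomal ones (median relative length 0.222 and 0.181). With the length trend removed their medians were 0.06 and -0.08, beside the 0.18 of the mitoribosomal genes. The lists share both libraries, and the differences between them were not tested.

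**Figure D4:**
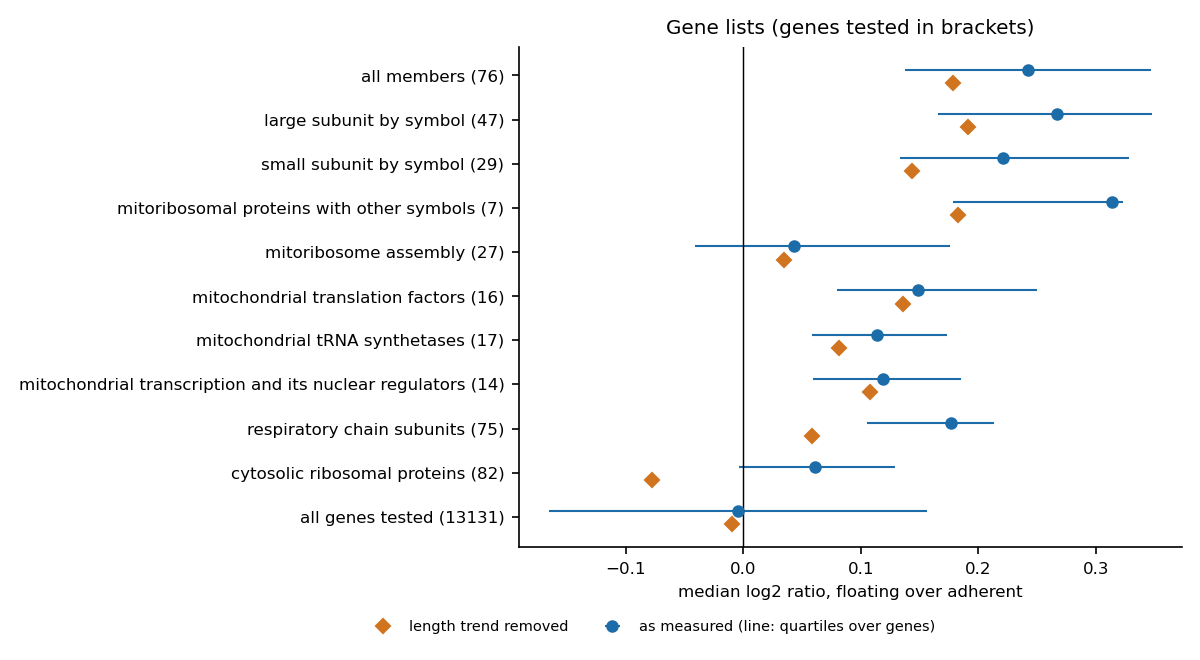
Median log2 ratio of floating over adherent for the mitoribosomal genes, each subunit, 7 other lists and all tested genes (circles, with quartiles over genes as lines) and the median with the length trend over all tested genes removed (diamonds). The mitoribosomal genes lie at 0.24 and 0.18, respiratory chain subunits at 0.18 and 0.06, and cytosolic ribosomal proteins at 0.06 and -0.08.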

How the data were processed

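The authors deposited 2 tables with the same symbols and a column per library, one of estimated counts without normalization and one of TPM. Build hg19 and the programs RSEM 1.3.3, STAR 2.5.3a and FastQC 0.11.1 are named per the submitters' processing notes. Annotation, settings and strand use: not given in the sources used here. Estimated counts were rounded, and 3 members (MRPL45, MRPS24 and MRPS6) had decimals. Counts were scaled by TMM in edgeR 4.0.16 (R 4.3.3) over all genes, and log2 ratios used a prior count of 0.5. Genes of at least 1 CPM in one library were kept. Intervals are Clopper-Pearson, conditional on a gene's summed reads. Reads without molecular identifiers are not independent molecules. With 1 library per group edgeR's and DESeq2's tests were not run. The ratio and its interval were tested on simulated data that held counting error only. That simulation cannot tell how well the intervals cover the spread between cultures. Length trends were lowess fits (span 0.3, statsmodels 0.14.6, Python 3.11.15).

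Named genes were any member past 2-fold or at 0 reads (none), per subunit the 6 of highest and 3 of lowest mean TPM, the 6 and 4 at the ends by the interval bound nearest to 0, members in another complex or subunit than the symbol says, the MRPS18 paralogues, and in each companion list the 2 of largest log2 ratio in size among genes of at least 10 CPM. One gene that this rule picks is not reported here. Some further members were named for length or for small counts after their values were seen, and so was LRPPRC, as the partner of SLIRP. Members and lists were chosen with earlier results of these data known. Promoter sequences are from RefSeq, on another build than the files, and were joined to the counts by symbol only.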

Additional observations from a re-analysis of the deposited data

How the results depend on the processing

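The alternatives scaled counts by upper quartile, by library totals or by size factors of DESeq2 1.42.0, or used deposited TPM (with 0.1 added), a prior count of 5, no filter, at least 5 CPM, whole-number estimates only, the length trend removed and the subunits by structure. Removing a trend over GC content (GENCODE v29 transcripts, 97.5% of tested genes), alone or after length, was added after seeing the data. Wherever one of the 12 gave it, the median of all members was above 0, from 0.18 to 0.25, and the difference between the subunit medians lay between 0.01 and 0.06. The summed reads gave a log2 ratio of 0.21, against 0.19 with the upper quartile and 0.19 on TPM. With the length trend removed, 17 members were at least 1.2-fold higher and 1 lower (MRPL48), and 5 intervals lay below 0. With length and GC removed, these counts were 19, 1 and 5. The median of cytosolic ribosomal proteins was -0.0773 with the length trend removed, against 0.06 without. The cause of these shifts was not tested. Of the alternative values of single named members, 18 moved by more than the counting interval, all with the length trend removed, alone or with GC. Filters, whole-number estimates and subunits by structure could not move the ratio of a gene. No paired analysis was possible because there is 1 library per growth form, and no library could be left out for the same reason. Genes of few reads, such as MRPL55, have the widest intervals.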

Other observations

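Some mitoribosomal genes start back to back with another gene. In the RefSeq windows, 25 of the 67 genes had a start on the opposite strand within 1000 bases upstream. For 16 of them, the partner was tested here and was not itself 1 of the 76 members. Of these 16 partners, 7 had a counting interval above 0 and 2 one below, where the shares of all tested genes were 25.5% and 25.6%. The partners' median log2 ratio was 0.16, beside 0.25 for their 16 mitoribosomal neighbours. Both genes of the pairs MRPS12 with SARS2 (0.39 and 0.28), MRPL32 with PSMA2, a proteasome subunit (0.44 and 0.31), MRPL51 with NCAPD2, a condensin subunit (0.27 and 0.17), and MRPL18 with TCP1, a chaperonin subunit (0.23 and 0.20), were higher in floating cells. In other pairs the genes differed in sign. MRPL49 was lower (-0.18) while its partner FAU, a fusion of a ubiquitin-like and a ribosomal protein, was higher (0.09), and MRPL14 was higher (0.35) while TMEM63B was lower (-0.10). The pairs were named after their values were seen.

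The count ratio and the TPM ratio of a gene differ where its effective length differs between the libraries. Centred on all tested genes, that difference was within 0.05 (log2) for 73 of 76 members. The 3 beyond it were MRPL35 (0.09; count ratio 0.30, TPM ratio 0.16), MRPL55 (0.06) and MRPS21 (-0.06).

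Symbols that the rule left out had few reads. MRPL45P2, a pseudogene symbol whose estimate, like that of MRPL45, has decimals, had 70 reads in floating and 80 in adherent cells, and MRPS31P5 had 132 and 114. MRPL42P5 had 1 and 4 reads and MRPL23-AS1 none.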
